A study of Mus musculus with 273 samples.

Results

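The 5 hairpins described here come from 2 loci of the mouse genome. miR-653 and miR-489 (mmu-mir-653 and mmu-mir-489) lie in an intron of Calcr, and miR-216b, miR-216a and miR-217 (mmu-mir-216b, mmu-mir-216a and mmu-mir-217) form a cluster on chromosome 11. They are 5 of the 1226 miRNA hairpins in the count tables, and they were chosen by their read level in hypothalamus against the other tissues. Their hypothalamus levels against other tissues are therefore given as a description, without a test. Small RNA was sequenced from 273 libraries: 72 of hypothalamus, 46 of right striatum, 78 of right cerebral cortex and 77 of liver. All mice were wild-type C57BL/6J males, 26 weeks old, and the labels name no allele, agent or treatment. Tissue was taken every 3 h from 0 to 36 h, which gave 13 time points, and striatum had none at 15 h. Zeitgeber time (ZT) is the time point modulo 24 h, and the 31 groups of tissue and ZT held 2 to 12 libraries.

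A miRNA hairpin is cut from a longer transcript and then into a duplex, of which 1 strand usually guides silencing of messenger RNAs that pair with its seed, bases 2 to 8. Calcr encodes the calcitonin receptor, which also binds amylin when joined by an accessory protein. In the brain the receptor is made by hypothalamic neurons that act on feeding, and in mouse brain the gene is expressed mainly from the maternal allele. miR-489 is best known from resting muscle stem cells. miR-216a, miR-216b and miR-217 are best known as miRNAs of the acinar cells of the pancreas.

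RefSeq sequences (GRCm38.p6) were available for all 5 hairpins and their 10 mature arms. The hairpins are shown because each count joins both arms, which are in capitals. The Calcr pair lies on the minus strand, at chr6:3721301-3721385 for miR-653 and chr6:3721897-3722003 for miR-489, with 511 bases between them. In the GENCODE annotation of the same build both sit in intron 4 of the transcripts Calcr-201, Calcr-202 and Calcr-205, and in intron 2 of Calcr-203 and Calcr-204.
miR-653: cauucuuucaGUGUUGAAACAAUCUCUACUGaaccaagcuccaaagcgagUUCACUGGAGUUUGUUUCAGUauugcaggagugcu
miR-489: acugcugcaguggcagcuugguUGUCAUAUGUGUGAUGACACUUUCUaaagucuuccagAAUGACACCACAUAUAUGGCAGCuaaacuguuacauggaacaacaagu

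The cluster lies on the plus strand, at chr11:28746191-28746276 for miR-216b, chr11:28757012-28757083 for miR-216a and chr11:28763728-28763835 for miR-217. The gap is 10735 bases from miR-216b to miR-216a and 6644 bases from miR-216a to miR-217. In GENCODE miR-216a and miR-217 sit in intron 2 of the long intergenic RNA Gm12082, while miR-216b lies outside it. RefSeq places miR-216b within the span of the non-coding gene Mir217hg (chr11:28730633-28751781), whose exons were not analysed here. The miR-216c hairpin is annotated across miR-216b on the opposite strand and had 1 count in all 273 libraries together.
miR-216b: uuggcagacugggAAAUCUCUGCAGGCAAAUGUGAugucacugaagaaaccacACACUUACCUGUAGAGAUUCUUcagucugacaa
miR-216a: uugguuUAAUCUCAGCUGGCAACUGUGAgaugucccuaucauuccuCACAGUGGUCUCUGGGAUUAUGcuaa
miR-217: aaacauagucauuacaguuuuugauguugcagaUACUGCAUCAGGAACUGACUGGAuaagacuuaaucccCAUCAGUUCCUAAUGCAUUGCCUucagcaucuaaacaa

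The mature arms are shown with the seed in capitals, since the seed sets which messages an arm can pair with.
miR-653-5p: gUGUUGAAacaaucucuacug
miR-653-3p: uUCACUGGaguuuguuucagu
miR-489-5p: uGUCAUAUgugugaugacacuuucu
miR-489-3p: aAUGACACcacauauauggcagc
miR-216b-5p: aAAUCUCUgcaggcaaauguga
miR-216a-5p: uAAUCUCAgcuggcaacuguga
miR-217-5p: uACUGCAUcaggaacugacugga

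No seed was shared among the 10 arms, of which 7 are shown. miR-216a-5p and miR-216b-5p came closest, with 18 of 22 bases identical. Counted from the 5′ end of miR-216a-5p, the substitutions were U1A, A8U, U11A and C17A, so bases 2 to 7 agree and the last seed base differs. Of the 1679 mature mouse arms in the RefSeq table, 1 other arm held a seed of these loci: miR-425-5p has the seed of miR-489-3p. Over bases 2 to 7 alone, miR-653-3p also matched the 3′ arms of miR-181b-1 and miR-181b-2, and miR-489-5p matched miR-485-3p.

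The tissue labels were checked against miRNAs known to mark cell types. The liver list (miR-122, miR-192, miR-194-2 and miR-802) summed to 248972 to 355733 CPM over the liver libraries and to 7510 CPM at most in any brain library, where CPM is the count divided by the library's total and scaled to 1000000. The neuron list (8 hairpins of miR-124, miR-9 and miR-128) summed to 1888 to 6018 CPM in hypothalamus, 3826 to 14604 in striatum, 10644.5 to 33752.5 in cortex and at most 12.2 in liver. Of these 8, 5 had a mean of at least 1 CPM in hypothalamus, 6 in striatum and 7 in cortex. The sum thus rests on part of the list, and it was not set against a measure of neuron content. A few libraries stood apart. miR-375, a miRNA of endocrine cells such as those of the pituitary, was at 80244 CPM in hypothalamus ZT9 replicate 8 and at 111518 CPM in ZT0 replicate 9. The other 70 hypothalamus libraries held 272 to 6648 CPM of it. Striatum ZT9 replicate 6 had 26341 counts in all, and striatum ZT21 replicate 3 had the highest summed skeletal muscle list of its tissue (98.8 CPM, against a median of 1.13), of which only miR-206 had a mean above 1 CPM in striatum. Totals elsewhere ran from 743902 to 5236177 counts.

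miR-653 was the most abundant of the 5 in hypothalamus, at 395 ± 74.4 CPM (SD, n = 72), and ranked 133 of 1226 hairpins there. Its values ran from 190.5 through a median of 392 to 579 CPM. In striatum it was at 85.5 ± 60.6 CPM (n = 46), from 12.1 through 65.5 to 266. Cortex held 4.88 ± 5.37 CPM (n = 78), from 0 through 4.16 to 45.8. In liver 11 counts were found in 77 libraries, a mean of 0.0498 CPM. The hypothalamus mean was 4.62 times the striatum mean and 81.02 times the cortex mean. Groups overlapped for striatum, where 4 libraries lay above the lowest hypothalamus library, but no cortex or liver library reached that level.

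miR-489 had the same order of tissues as its neighbour at a lower read level. Hypothalamus held 34.8 ± 6.83 CPM, from 17.2 through 34.8 to 54.1. Striatum held 7.94 ± 4.65 CPM, from 0 through 7.78 to 19.6, and 1 striatum library exceeded the lowest hypothalamus library. In cortex the mean was 0.540 ± 1.07 CPM, with no count in 26 of 78 libraries, and liver had 1 count in all. The hypothalamus mean was 4.39 times that of striatum and 64.5 times that of cortex.

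The 3 hairpins of the cluster had the same order of tissues, with more overlap between hypothalamus and striatum. miR-217, the most abundant of them, was at 155 ± 27.1 CPM in hypothalamus, from 48.8 through 159.7 to 232. In striatum it was at 51.0 ± 41.9 CPM, from 1.86 through 51.4 to 189.8, and 24 of 46 striatum libraries lay above the lowest hypothalamus library. Cortex held 3.44 ± 1.96 CPM, from 0.552 through 3.22 to 14.2, and liver 33 counts in all.

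miR-216a was at 47.9 ± 10.03 CPM in hypothalamus, from 19.4 through 48.4 to 71.5. In striatum it was at 15.2 ± 13.1 CPM, from 0 through 14.8 to 56.5, with 15 libraries above the hypothalamus minimum. In cortex it was at 1.16 ± 0.869 CPM, and liver had 12 counts. miR-216b was the lowest of the 5 in hypothalamus, at 14.2 ± 3.75 CPM, from 5.07 through 14.2 to 23.6. In striatum it was at 5.20 ± 6.10 CPM, from 0 through 3.56 to 37.96, with 19 libraries above the hypothalamus minimum. The highest value is 1 count in ZT9 replicate 6, and without the 2 striatum libraries that stood apart the mean was 4.57 ± 3.59 CPM and the maximum 15.3. Cortex held 0.614 ± 0.528 CPM and liver 5 counts.

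The hypothalamus means of miR-216b, miR-216a and miR-217 were 2.73, 3.14 and 3.05 times the striatum means and 23.2, 41.2 and 45.1 times the cortex means. Liver values rest on few reads, and in 1 liver library 3 counts, the limit that a count of 0 allows, equal 0.573 to 1.51 CPM. The ratio of summed hypothalamus to summed liver CPM was 8027 for miR-653, with a counting interval of 4486 to 16079, and 1069.5 for miR-217, with an interval of 761.5 to 1554 (95%, exact Poisson on the liver counts). These intervals cover counting error only and hold for scaling by library totals. Other scalings gave lower ratios of means, 2101 (TMM) and 2840 (DESeq2 size factors) for miR-653 and 273.8 and 362.7 for miR-217. The geometric mean ratio within mice, with 0.5 CPM added, was 714.6 for miR-653 and 246.6 for miR-217. Hypothalamus was the higher tissue under each. In bulk tissue, fewer cells that make a miRNA and less of it per cell cannot be told apart.

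**Figure D1:**
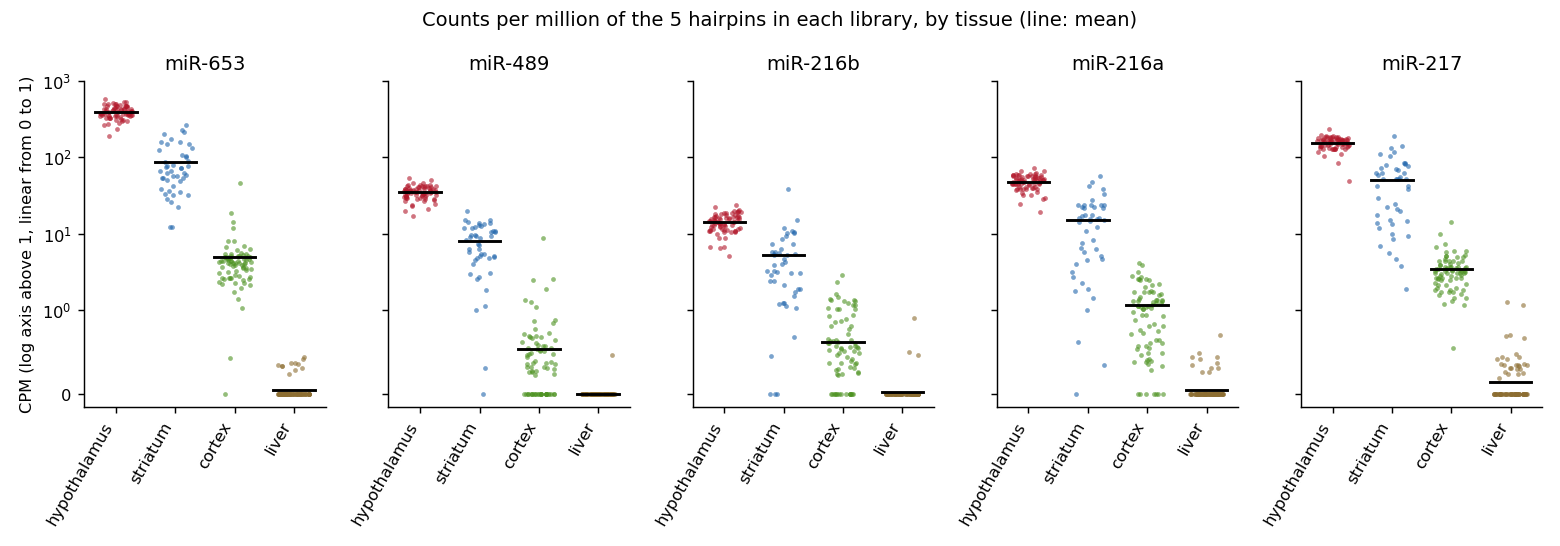
CPM of each hairpin (panels) in each library (points), by tissue, with the mean as a line; the vertical axis is linear from 0 to 1 and logarithmic above. Hypothalamus points form a narrow band, for miR-653 from 190.5 to 579 CPM, while striatum points of miR-217 spread from 1.86 to 189.8 CPM, or from 3.80 to 142.5 without the 2 libraries that stand apart.

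The libraries carry animal codes, so tissues of the same mouse could be set side by side. miR-653, miR-489 and miR-217 were higher in hypothalamus than in striatum in 44 of 44 mice, miR-216b in 43 and miR-216a in 41. Against cortex, all 5 were higher in hypothalamus in 72 of 72 mice, and against liver in 71 of 71. The members were chosen for their hypothalamus level, so these counts are a description, and the share over all hairpins was not computed. The mean log2 difference from striatum within a mouse, on the log2(CPM + 0.5) scale, was 2.54 ± 1.05 (SD) for miR-653 and 2.27 ± 1.58 for miR-217.

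The question posed by the time series is whether levels change over the day. In hypothalamus none of the 5 hairpins did so by a test of a 24 h cosine curve (edgeR quasi-likelihood F test, adjusted p = 1 for each), where 0.25% of the 400 hairpins tested were called. None of the 5 passed at an unadjusted p of 0.05 either, and DESeq2 called none. The fitted peak-to-trough log2 ratio was 0.09 for miR-653, 0.07 for miR-489, 0.10 for miR-216b, 0.03 for miR-216a and 0.04 for miR-217. The upper ends of the approximate 95% intervals were 0.32, 0.24, 0.35, 0.28 and 0.24. Each ratio was below its standard error, where such intervals are rough, so these ends are not firm limits on a daily change. The median curve over the 400 hairpins had a ratio of 0.11.

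Group means moved little beside their spread. Those of miR-653 lay between 355 ± 141.2 CPM at ZT15 (n = 5) and 431 ± 41.3 at ZT18 (n = 5). Those of miR-489 lay between 30.9 ± 8.54 at ZT15 and 38.7 ± 4.69 at ZT18. miR-217 ran from 136 ± 59.03 at ZT15 to 172 ± 26.3 at ZT9 (n = 10). At ZT15 the 5 libraries held 357, 307, 343, 190.5 and 579 CPM of miR-653, so both the lowest and the highest hypothalamus library fell in that group. The same 5 libraries held 102.8, 176, 163, 48.8 and 190.1 CPM of miR-217, with the lowest and the highest of the group in the same libraries as for miR-653. The lowest of them, replicate 4, also had the highest neuron list of all hypothalamus libraries, 6018 CPM against a median of 3140. Its part in the low values was not tested.

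**Figure D2:**
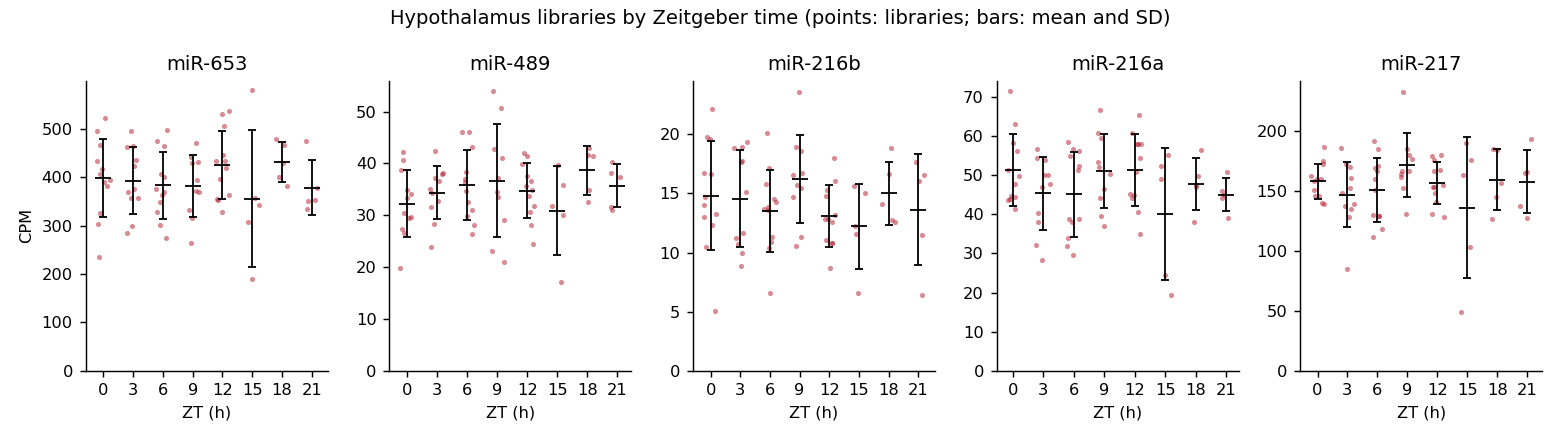
CPM of each hairpin (panels) in the 72 hypothalamus libraries (points) by ZT in hours, with mean and SD. Means of miR-653 lie between 355 and 431 CPM. The largest SD is at ZT15 for miR-653, miR-216a and miR-217, at ZT9 for miR-489 and at ZT21 for miR-216b.

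The hours ZT0 to ZT12 were sampled in a first passage (up to 12 h) and in a second (from 24 h on). In hypothalamus none of the 5 hairpins differed between these passages (edgeR, adjusted p = 0.987 for each), with log2 ratios of -0.06 for miR-216a, -0.01 for miR-216b, 0.01 for miR-217, 0.02 for miR-489 and 0.06 for miR-653. The widest 95% interval, that of miR-216a, ran from -0.25 to 0.13. Of all 380 hairpins tested 0% were called by edgeR, 6 had an unadjusted p under 0.05, and DESeq2 called 0. Both tests gave the same calls without the 2 libraries of high miR-375.

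The other tissues gave no daily change that passed the test either. In striatum the peak-to-trough log2 ratios were larger, from 0.60 for miR-216b to 0.95 for miR-216a, but the adjusted p was 0.996 for each (edgeR, 0.487% of 411 hairpins called), and the upper interval ends reached 1.51 to 2.26. Second-passage striatum libraries held more of all 5, with log2 ratios from 0.31 ± 0.23 (SE) for miR-489 to 0.75 ± 0.39 for miR-216a. None passed adjustment (edgeR, adjusted p = 0.366 to 0.550, 0% of 381 hairpins called), and 50 hairpins had an unadjusted p under 0.05, among them miR-216b at 0.0346. DESeq2 called 0 of all hairpins there.

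In cortex only miR-653 and miR-217 were abundant enough to be tested. Their curves had log2 ratios of 0.50 and 0.25 (edgeR, adjusted p = 0.989, 0.242% of 413 hairpins called), and their passages differed by 0.03 ± 0.28 (SE) and -0.22 ± 0.19 (adjusted p = 0.959 and 0.405, 30.5% of 393 called). In liver all 5 fell below the filter on low counts, so 0 of 5 were tested (4.26% of the 258 hairpins tested had a daily curve). In edgeR's interaction test the curves of miR-653 and miR-217 did not differ past the threshold between hypothalamus and cortex (adjusted p = 0.9997 for both). Of the 431 hairpins in that test 0% were called, 13 had an unadjusted p under 0.05, and DESeq2 called 0. None of the 5 curves differed past the threshold between hypothalamus and striatum (edgeR, adjusted p = 0.949 to 0.957, 0.698% of 430 called). The cortex test is not given for miR-489, miR-216a and miR-216b, which fell below the filter on low counts in cortex. The same test against liver is not given, since liver counts of the 5 are at or near 0.

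A comparison that uses no hypothalamus library is striatum against cortex. All 5 hairpins were higher in striatum, where 14% of the 456 hairpins tested were called, 7.24% higher and 6.8% lower (edgeR, adjusted p under 0.05 and an absolute log2 ratio of at least 1). The log2 ratio was 3.97 ± 0.18 (SE) for miR-653 with an adjusted p of 3.59e-42, and this was the highest ratio among the 456. For miR-217 it was 3.66 ± 0.19 (adjusted p = 1.96e-37), for miR-489 3.62 ± 0.21 (3.78e-32), for miR-216a 3.52 ± 0.22 (1.04e-29) and for miR-216b 2.69 ± 0.21 (1.60e-23). The median over all 456 was -0.01. In cortex alone miR-489, miR-216a and miR-216b fell below the filter on low counts, so they entered this test through striatum. The direction of their calls was thus largely set in advance. All 5 were chosen by hypothalamus level against the other tissues, cortex and striatum among them. The calls and p-values of all 5 are therefore given as a description, not as an independent test.

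Single libraries show the same order. Of 46 striatum libraries, 46 lay above the cortex median for miR-653, 45 for miR-217, 44 for miR-489 and 42 each for miR-216a and miR-216b. Of 78 cortex libraries, 0 exceeded the striatum median of miR-653, miR-217, miR-216a or miR-216b, and 1 exceeded that of miR-489. That library was cortex ZT0 replicate 1, which held 45.8 CPM of miR-653, 8.79 of miR-489 and 14.2 of miR-217, the highest of cortex for each, but 3.83 of miR-216a and 1.35 of miR-216b. It also had the lowest neuron list (10644.5 CPM) and the highest choroid plexus and ependyma list (41908 CPM, against a median of 4906) of cortex. The part of either in the library's high values was not tested. Without it the log2 ratio of miR-653 was 4.13 and that of miR-489 3.98.

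Other endocrine and hypothalamic miRNAs, a list of 9, did not move as 1 group between striatum and cortex. miR-7a-2, from a family abundant in neuroendocrine cells, was higher in striatum by 1.85 ± 0.12 (SE) on the log2 scale (edgeR, adjusted p = 1.21e-27). All 5 of miR-200a, miR-200b, miR-200c, miR-141 and miR-429, a family known from epithelia and pituitary, were lower, as with miR-200b at -2.11 ± 0.27 (adjusted p = 1.67e-11) and miR-429 at -1.98 ± 0.28 (adjusted p = 4.67e-10). The remaining 3 of the 9 missed the ratio threshold, and the list's median log2 ratio was -1.55. None of the 9 had a daily curve or a passage difference in hypothalamus that passed edgeR's test (lowest adjusted p = 1 and 0.987).

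Within hypothalamus, the spread of the 5 hairpins was ordinary. Their coefficients of variation (SD over mean) ran from 17.5% for miR-217 to 26.4% for miR-216b, against a median of 21.9% over the 317 hairpins with a mean of at least 10 CPM. In striatum the 3 members above that level had 70.9% (miR-653), 82.3% (miR-217) and 86.2% (miR-216a), against a median of 33.6% over 315 hairpins, of which 8.57%, 6.98% and 6.35% had a larger value. Without the 2 libraries apart they had 67.9%, 74.6% and 84.95%, against 29.4% over 317. miR-489 and miR-216b lie below 10 CPM in striatum and have no such comparison.

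Part of the hypothalamus spread followed library runs, taken as stretches of consecutive library numbers that share 1 code in the labels, whose meaning is not stated. By an edgeR test of run with ZT as a factor, 4 of 5 hairpins differed between runs, as did most hairpins (70.8% of the 400 were called). The adjusted p was 1.91e-04 for miR-216a, 0.00156 for miR-653 and miR-489, 0.00668 for miR-217 and 0.151 for miR-216b. miR-653 was lowest in run 1 (332 ± 28.8 CPM, n = 6) and run 2 (348 ± 41.2, n = 10), and at 403 to 418 in runs 3 to 9. miR-489 went another way, with 36.4 ± 3.55 in run 1, 40.8 ± 6.77 in run 3 (n = 12) and 27.7 ± 5.65 in run 8 (n = 11). These run means are CPM, scaled by library totals, while the test used TMM scaling. With library totals in the edgeR test, miR-653 and miR-217 were not called (adjusted p = 0.398 and 0.374) and miR-216b was (0.0489). In striatum 0 of 5 hairpins differed between runs (39.4% of 411 called; adjusted p from 0.192) and in cortex 0 of 2 (64.6% of 413 called; adjusted p from 0.131). None of these 5 striatum or 2 cortex tests had an unadjusted p under 0.05.

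**Figure D3:**
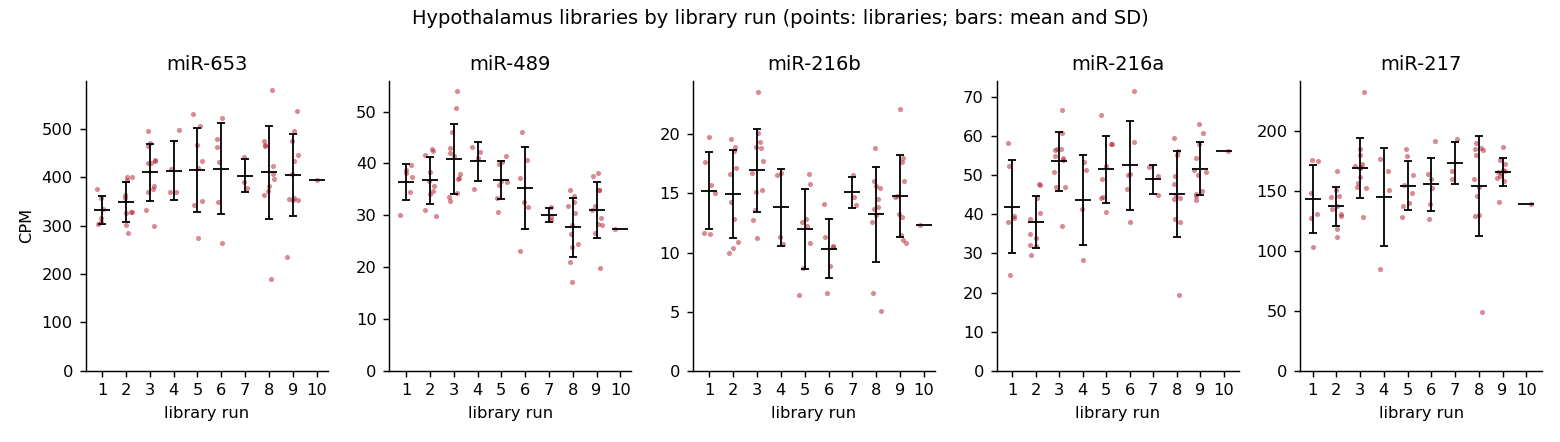
CPM of each hairpin (panels) in the hypothalamus libraries (points) by library run, with mean and SD; run 10 holds 1 library. miR-653 is lowest in runs 1 and 2, at means of 332 and 348 CPM, while miR-489 is lowest among runs of 3 or more libraries in run 8, at 27.7 CPM.

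The 10 pairs of hairpins were compared across libraries on the log2(CPM + 0.5) scale, and a pair was called by its rho. The share of pairs of other hairpins that would pass was not computed, so these calls have no background beside them. In hypothalamus miR-216a and miR-217 moved together, with Spearman's rho = 0.62 and Pearson's r = 0.77 over 72 libraries (permutation adjusted p = 1e-04 for both over 10 pairs, two-sided). The relation was positive in 7 of 7 runs of at least 6 libraries, with a median rho of 0.69 within runs. Without the 2 libraries farthest from the median r was 0.66. miR-216b and miR-217 had rho = 0.35 and r = 0.41 (permutation adjusted p = 0.0123 and 0.00277), positive in 6 of 7 runs, and r = 0.44 without the farthest 2. For miR-216b and miR-216a rho was 0.09 and r was 0.20, and neither passed (permutation adjusted p = 0.672 and 0.104).

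The Calcr pair depended on how runs were treated. Over all 72 libraries miR-653 and miR-489 had rho = 0.16 (permutation adjusted p = 0.39) and r = 0.36 (adjusted p = 0.00482), and r fell to 0.14 without the 2 farthest libraries. With ZT and run taken out, rho was 0.40 and r was 0.56 (permutation adjusted p = 0.0021 and 5e-05), and rho was positive in 7 of 7 runs, from 0.02 to 0.66. Between the loci, miR-653 and miR-216a had rho = 0.31 (permutation adjusted p = 0.0289) and r = 0.40 (adjusted p = 0.00277). With ZT and run taken out rho fell to 0.17 (adjusted p = 0.23) while r was 0.29 (adjusted p = 0.0226), and rho was positive in 3 of 7 runs. Without the 2 farthest libraries r was 0.33. Another pair between the loci, miR-489 and miR-216a, passed only with ZT and run taken out, with rho = 0.30 and r = 0.33 (permutation adjusted p = 0.0254 and 0.0108). Over all libraries it had rho = 0.15 and r = 0.22 (adjusted p = 0.39 and 0.097), and within runs of at least 6 libraries rho = 0.25 (adjusted p = 0.131). miR-653 and miR-217 had rho = 0.07 (adjusted p = 0.677) and r = 0.32 (adjusted p = 0.0157), and r fell to 0.12 without the 2 farthest. The 3 pairs past the threshold were also past it without the 2 libraries of high miR-375.

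In striatum all 10 pairs were past the threshold by rho, a comparison added after the hypothalamus result was seen. A hairpin outside the set, miR-873a, had rho = 0.91 with miR-216a, above every pair of members but miR-216a and miR-217. The count is therefore not read as particular to these loci. miR-216a and miR-217 were closest, with rho = 0.94 and r = 0.94 over 46 libraries. miR-216b had rho = 0.87 with miR-216a and 0.84 with miR-217, and the Calcr pair had rho = 0.67 and r = 0.52. Across loci, miR-653 had rho = 0.81 with miR-216a, 0.78 with miR-217 and 0.72 with miR-216b. The permutation adjusted p of these 7 pairs was 1.43e-05 by rho and at most 3.86e-04 by r. By rho each had an unadjusted permutation p of 1e-05, the smallest that 100000 permutations can give. r without the 2 farthest libraries was 0.93 for miR-216a and miR-217, 0.76 for miR-653 and miR-216a and 0.39 for the Calcr pair. The pairs of miR-489 with the cluster were weaker, at rho = 0.41 to 0.47, and were not past the threshold with ZT and run taken out (0.15 to 0.25, permutation adjusted p = 0.123 to 0.321).

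The summed level of the 5 spanned 14.9 CPM in striatum ZT21 replicate 3 to 493.5 in ZT9 replicate 6, a 33.1-fold range, against 3.09-fold in hypothalamus. Without those 2 libraries, which stood apart above, it ran from 35.6 to 486.6 CPM. It was high where the neuron list was low. Over the 46 striatum libraries rho was -0.75 and r was -0.70 (permutation adjusted p = 9e-05 for both over 9 relations), r was -0.65 without the 2 farthest libraries, and rho was -0.75 with ZT and run taken out. Without the 2 libraries apart rho was -0.83. CPM share 1 total per library, so a rise in some hairpins lowers others. Striatum ZT0 replicate 7 had the lowest neuron list, 3826 CPM, and a member sum of 486.6, while ZT3 replicate 1 had the highest, 14604, and a sum of 67.4. The oligodendrocyte list moved the other way, with rho = 0.36 and r = 0.42 (permutation adjusted p = 0.0429 and 0.0113), but rho fell to 0.30 (adjusted p = 0.105) with ZT and run taken out, and r to 0.29 without the 2 farthest libraries. The skeletal muscle list had rho = -0.41 and r = -0.51 (permutation adjusted p = 0.0202 and 0.0018). With ZT and run taken out it had rho = -0.47 and r = -0.52 (adjusted p = 0.0054 and 8.1e-04). Without the libraries apart rho was -0.34 and r was -0.30, and neither passed (adjusted p = 0.0718 and 0.112). The endocrine list (rho = 0.31, adjusted p = 0.0701), the choroid plexus list (rho = 0.08, adjusted p = 0.593) and the blood list (rho = -0.08, adjusted p = 0.593) did not pass by rho in the permutation test. By r the endocrine list passed (0.37, permutation adjusted p = 0.0195), but not without the libraries apart (r = 0.28, adjusted p = 0.114). The total count had rho = -0.31 and r = -0.38 (permutation adjusted p = 0.0701 and 0.0195); it passed with ZT and run taken out (rho = -0.39, adjusted p = 0.0239) but not without the libraries apart (rho = -0.23, adjusted p = 0.164). The part of tissue makeup in the striatum spread was not tested.

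In hypothalamus the neuron list also fell as the members rose, with rho = -0.39 and r = -0.52 (permutation adjusted p = 0.00229 and 2.7e-04) and r = -0.46 without the farthest 2. The library's total count moved with them too, with rho = -0.46 and r = -0.38 (permutation adjusted p = 3.6e-04 and 0.00328), and r = -0.41 without the farthest 2. Both kept their direction with ZT and run taken out, at rho = -0.32 and -0.37 (adjusted p = 0.0307 and 0.0148). A list of pancreas miRNAs other than the members (miR-375, miR-148a and miR-7a-2) passed by rho but not by r, at 0.33 and -0.10 (permutation adjusted p = 0.0164 and 0.525). Without the 2 libraries of high miR-375, which are also the 2 farthest, rho was 0.43 and r was 0.36 (adjusted p = 6.9e-04 and 0.00666), and with ZT and run taken out rho was 0.07 (adjusted p = 0.621). The oligodendrocyte list had rho = -0.16 and r = -0.19 (adjusted p = 0.28 and 0.216), and passed by rho with ZT and run taken out (-0.30, adjusted p = 0.0307). The part of these lists and of depth in the hypothalamus spread was not tested.

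**Figure D4:**
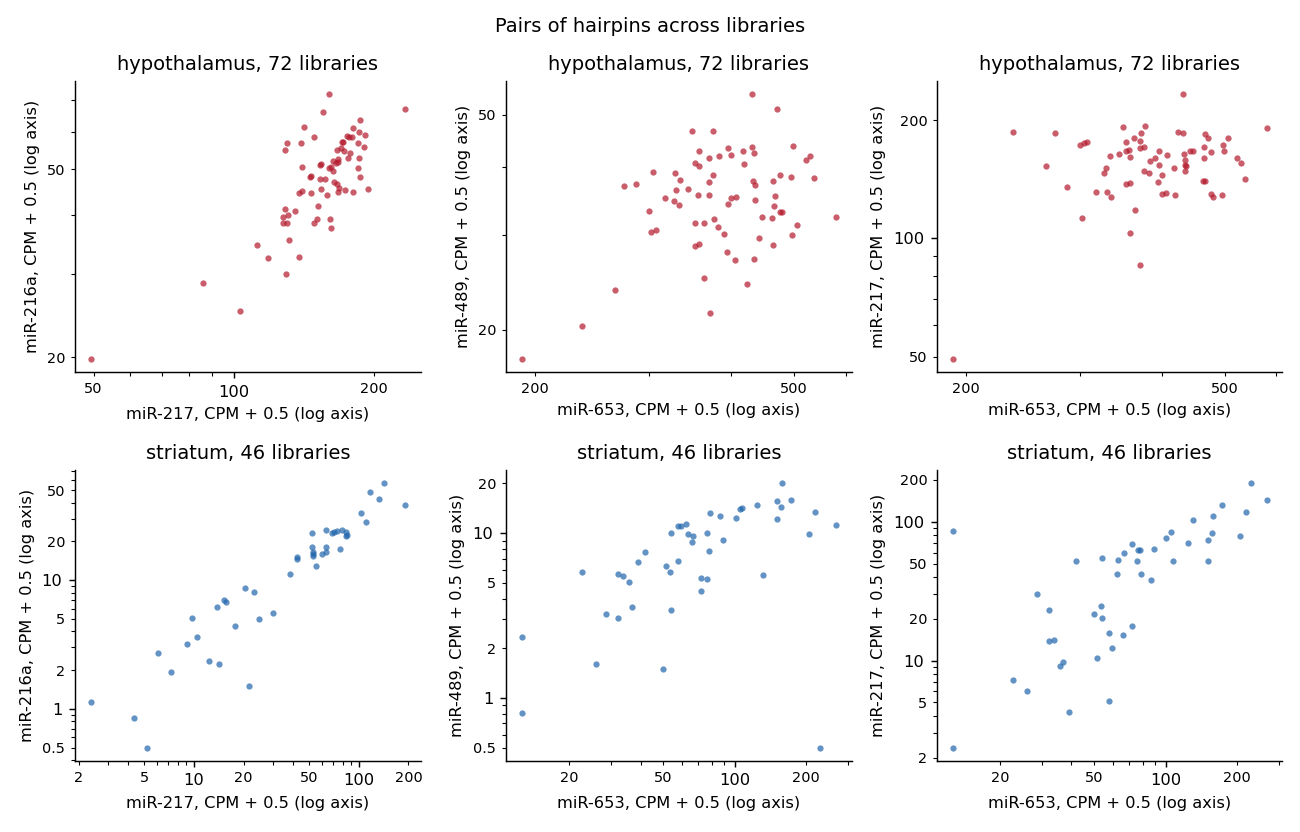
Pairs of hairpins across the 72 hypothalamus libraries (upper row) and the 46 striatum libraries (lower row), each point 1 library, both axes log-scaled CPM + 0.5. miR-216a rises with miR-217 in both tissues (rho = 0.62 and 0.94), while miR-217 rises with miR-653 in striatum (rho = 0.78) (r = 0.73), against rho = 0.07 and r = 0.32 in hypothalamus.

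Of the 10 read ratios between the hairpins, that of miR-216a to miR-217 had the narrowest range over hypothalamus libraries. A ratio of counts is one of reads, not of molecules. miR-216a to miR-217 was 0.303 from summed counts in hypothalamus, 0.297 in striatum and 0.349 in cortex, and single hypothalamus libraries ran from 0.229 to 0.447. miR-653 to miR-489 was 11.1 in hypothalamus, 9.20 in striatum and 8.19 in cortex, and ran from 7.52 to 18.2 in hypothalamus. miR-653 to miR-217 was 2.50 in hypothalamus, 1.70 in striatum and 1.503 in cortex. In striatum this last ratio ran from 0.144 in ZT6 replicate 5, with 12.2 CPM of miR-653 and 84.6 of miR-217, to 12.25 in ZT6 replicate 6, with 57.1 and 4.66. In that pair of libraries the loci differed in opposite directions.

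Levels in 1 tissue of a mouse said little about another. Over 72 mice with hypothalamus and cortex, miR-653 had rho = 0.02 and r = 0.09, miR-216a rho = -0.12 and r = -0.12, and miR-217 rho = 0.09 and r = 0.29 (permutation adjusted p = 0.654 to 0.873 by rho and 0.0543 to 0.423 by r, 3 hairpins). Between hypothalamus and striatum, over 44 mice and 5 hairpins, miR-216b had rho = -0.40 and r = -0.32 (permutation adjusted p = 0.0371 and 0.0984) and miR-217 rho = -0.36 and r = -0.31 (adjusted p = 0.0385 and 0.0984). With ZT and run taken out neither was past the threshold (rho = -0.34 and -0.19, adjusted p = 0.119 and 0.341), nor was either without the 2 mice farthest from the median (r = -0.33 and -0.32, adjusted p = 0.0539 by rho). Between cortex and striatum (46 mice) the 3 hairpins tested had rho of 0.05 to 0.16 and r of 0.02 to 0.05 (permutation adjusted p = 0.717 by rho and 0.888 by r).

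Hairpins most like each of the 5 were sought among those with a mean of at least 10 CPM, as a description. Over the 31 groups of tissue and ZT the members led each other's lists, as with miR-653 and miR-217 (Pearson's r = 0.998) and miR-489 and miR-216b (r = 0.992). The 1 hairpin from outside the set was miR-3547, with r = 0.988 to miR-653 and 0.987 to miR-217. It was at 726 ± 236 CPM in hypothalamus, 203 ± 118.2 in striatum, 18.6 ± 20.7 in cortex and 0.0841 in liver. The tissues fix these values, since groups of 1 tissue lie close together.

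Over the 72 hypothalamus libraries the lists parted. miR-153 (rho = 0.70), miR-101a (0.65) and miR-410 (0.64) were nearest to miR-653, and miR-551b (0.65), miR-29c (0.64) and miR-376a (0.63) to miR-489. miR-1298 (0.54), miR-532 (0.52) and miR-296 (0.46) were nearest to miR-216b. miR-216a and miR-217 were nearest to each other (0.62). Next came miR-136 (0.53) and miR-181c (0.52) for miR-216a, and miR-7068 (0.40) and miR-181c (0.37) for miR-217. Over the 46 striatum libraries miR-873a was in the first 3 of miR-653, miR-216a and miR-217 (rho = 0.82, 0.91 and 0.90), with miR-298 first for miR-653 (0.83) and miR-758 next after it for both others (0.87 and 0.88). These libraries share scaling by their totals, and these values carry no test.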

How the data were processed

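The authors deposited whole-number counts per library and miRNA hairpin, with no normalization. Per the submitters' processing notes, STAR 2.7.3a, HTSeq 0.10.0 and GRCm38 (mm10) were used; trimming, miRBase release and treatment of reads matching several places are not given in the sources used here. Per the labels' protocols, frozen tissue went through a miRNeasy kit and a Bioanalyzer check, and libraries were made from an enriched RNA subfraction. Median totals were 2120502 counts in hypothalamus, 2024602 in striatum, 3119447.5 in cortex and 2920409 in liver; a count of 0 allows 3 counts, or 0.602 to 2.58 CPM in cortex, 0.759 to 2.78 in hypothalamus, 0.746 to 113.9 in striatum.

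edgeR 4.0.16 (R 4.3.3; TMM, filterByExpr, quasi-likelihood F tests, Benjamini-Hochberg, threshold 0.05) was fitted to all hairpins, with limma 3.58.1 and DESeq2 1.42.0 as alternatives, and was tested on simulated counts. Correlations used 100000 two-sided permutations (Python 3.11.15, SciPy 1.17.1, pandas 2.3.3, numpy 2.4.6, matplotlib 3.10.9), and a pair was called by rho. The members, lists and tests were chosen with earlier results of these data known; run tests, striatum correlations, correlations with marker lists and the sets without libraries that stand apart were added after the data were seen. Named hairpins were the 5 members, the 3 most like each, and up to 3 called members of the endocrine list; miR-206, miR-3547's levels, the single libraries named and the miR-200 family as a group were chosen after their values were seen.

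Libraries of 1 group have different animal codes (78 codes in all, 43 in every tissue), so they are separate mice by the labels; 1 striatum code lacks a letter and was matched by its number and time point. No pair of libraries in a group had identical counts. Pairing came from these codes, not from replicate numbers. In striatum against cortex the consensus correlation of libraries of 1 mouse was 0.00143.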

Additional observations from a re-analysis of the deposited data

Results flagged for a closer look

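Of 62 tests, each of 1 hairpin in 1 group of 4 to 10 libraries, 7 found a library whose gap to its neighbour was wide beside the group's range (Dixon's 95% value); chance alone flags about 3.1. In striatum ZT9, replicate 6 held 189.8 CPM of miR-217, against 3.80 to 73.1 in the other libraries, and 37.96 CPM of miR-216b, against 0.682 to 10.5; these are 5 counts and 1 count of 26341. In striatum ZT0, replicate 7 held 56.5 CPM of miR-216a, against 1.42 to 22.6. In striatum ZT12, replicate 4 held 47.6 CPM of miR-216a, against 3.15 to 24.0. These last libraries also had low neuron lists, 3826 and 4350.5 CPM, whose part was not tested.

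In cortex, where levels are a few counts, ZT21 replicate 4 held 6.73 CPM of miR-217 (others 1.29 to 3.03), ZT15 replicate 3 held 2.76 of miR-216a (others 0.534 to 1.33) and ZT18 replicate 3 held 1.85 of miR-489 (others 0 to 0.688). None of the 25 hypothalamus libraries in groups of this size stood out; the other 47 are in larger groups and were not tested.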

How the results depend on the processing

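Of 1221 values under other settings, 1139 kept their call (and its direction where called), or stayed within 1.5 times a count or 1 SD of a level, 22 lost a call, 6 gained one, 54 moved and 0 reversed. No member gained or lost a rhythm, passage or striatum-against-cortex call in any alternative run. The cause of the changes below was not tested.

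Counts of rhythmic hairpins moved from 1 in hypothalamus to 4 (0 to 21 h), 5 (15 to 36 h) and 8 (ZT as a factor), and to 1 to 2 without single replicates; in cortex from 1 to 8 (DESeq2), 7 (0 to 21 h), 5 (15 to 36 h) and 7 (ZT as a factor); in striatum from 2 to 1 (library totals, DESeq2, or without the 2 libraries apart), 4 (no filter), 0 (run as a term, 0 to 21 h, or 15 to 36 h) and 1 to 4 without single replicates; in liver from 11 to 6 (ZT as a factor). DESeq2 gave 1 liver passage call (1 lower; edgeR 0) and 1 hypothalamus-striatum curve difference (edgeR 3). Hairpins lower in striatum than cortex rose from 31 to 47 without a filter.

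Replicate numbers do not pair mice; animal codes do. With the replicate block (animal code, limma voom) no member lost its striatum-against-cortex call. Within-mouse geometric mean ratios, with 0.5 CPM added to each value, were 5.81 for miR-653, 4.16 for miR-216b, 5.05 for miR-216a and 4.82 for miR-217 (hypothalamus to striatum). To cortex they were 39.7 for miR-489, 14.3 for miR-216b and 32.2 for miR-216a. The cortex medians of miR-489 and miR-216b, 0.362 and 0.548 CPM, are near the amount added, which lowers such ratios. Ratios of medians were 5.99 (miR-653) and 3.99 (miR-216b) to striatum and 96.2 (miR-489) to cortex. Leaving out cortex ZT0 replicate 1 gave 80.4 for miR-489; over single libraries left out that ratio ran from 64.2 to 80.4.

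Hypothalamus-striatum correlations within mice past the threshold fell from 2 to 1 (TMM) and 0 (ZT and run taken out, or without the 2 farthest). Marker list relations fell from 3 to 1 in striatum (without the 2 farthest) and from 2 to 0 in cortex (ZT and run taken out).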

Other observations

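In the 2 hypothalamus libraries of high miR-375, miR-653 was at 236 and 265 CPM and miR-489 at 19.9 and 23.2, near the low end of the other 70 libraries (190.5 to 579 and 17.2 to 54.1). miR-216a, at 50.4 and 63.1, and miR-217, at 153 and 186, were near or above the medians of the others, 47.8 and 159.7 CPM.

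Over the 78 cortex libraries the summed members moved with the choroid plexus and ependyma list (rho = 0.32, r = 0.54, permutation adjusted p = 0.0185 and 0.00177, r = 0.23 without the 2 farthest libraries and 0.20 without ZT0 replicate 1 alone). With ZT and run taken out rho was 0.28 (adjusted p = 0.0618). The pancreas list without the members moved as closely (rho = 0.33, r = 0.44, adjusted p = 0.0185 and 2.7e-04, r = 0.41 without the 2 farthest), with rho = 0.29 (adjusted p = 0.0618) once ZT and run were taken out. In cortex the members are at a few counts per library, which limits both values.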
